A study of Homo sapiens with 4 samples.

Results

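The genes described here are 8 genes tied to the T-cell or the myeloid lineage, CD3E, CD7, BCL11B, GATA3 and TAL1 in the T-cell group and MPO, CEBPA and CSF1R in the myeloid group, out of the 20052 protein-coding genes of RefSeq. The rule lists them by name, with earlier results of these data known, and each was examined over its gene body on hg19 with 10 kb added on each side. H3K27 acetylation (H3K27ac), a histone mark found at active promoters and enhancers, had been profiled by ChIP-seq once in REH and once in 697, and the 4 samples of the series include the input DNA of each. Both are established lines of B-cell precursor acute lymphoblastic leukemia (BCP-ALL) in culture without treatment, REH with the ETV6/RUNX1 fusion and 697 without it. The cell lines differ in much besides the fusion, and with 1 library each the fusion, the line and the library cannot be told apart. The values are those of the peaks that the authors called against the input of the same line, 44626 in REH and 74504 in 697, from 65241657 and 68911420 filtered ChIP tags. There were no replicates, so no test between the lines was possible, and every difference below is a difference between 2 libraries without an error.

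During blood development, precursors that commit to the B lineage shut down the programs of the other lineages. In T cells, CD3E encodes a chain of the T-cell receptor complex and CD7 an early surface marker of T-lineage cells, while BCL11B and GATA3 are transcription factors of T-cell commitment. TAL1 is a factor of blood stem and erythroid cells that is silenced in normal T-cell maturation and aberrantly activated in T-cell leukemia. CEBPA is the transcription factor that directs granulocyte and monocyte fate, MPO encodes myeloperoxidase, the granule enzyme used to diagnose myeloid leukemia, and CSF1R encodes the receptor for macrophage colony-stimulating factor. CEBPA also acts on the expression of such myeloid genes.

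The 4 promoters printed here belong to the genes with a peak within 1 kb of the 5′ end in at least 1 line and a sequence in the RefSeq promoter table, and they show how different in base composition these 5′ ends are. Each run is the 250 bases before the RefSeq start, read 5′ to 3′ on the strand of the gene (the minus strand for each) from GRCh38.p14. GRCh38 is not the build of the peaks, and no position was carried from one build to the other. BCL11B lies at chr14:99272198-99272447, TAL1 at chr1:47232336-47232585, CEBPA at chr19:33302535-33302784 and CSF1R at chr5:150113366-150113615. Capitals mark matches, on either strand, to 8 short motifs: the RUNX motif, spelled TGTGGT, the motif of GATA factors, spelled AGATAA, the ETS motif, spelled CCGGAA, the C/EBP motif, spelled TTGCNNAA, the E-box, spelled CAGCTG, the CCAAT box, the GC box, spelled GGGCGG, and the TATA box, spelled TATAAA.
BCL11B: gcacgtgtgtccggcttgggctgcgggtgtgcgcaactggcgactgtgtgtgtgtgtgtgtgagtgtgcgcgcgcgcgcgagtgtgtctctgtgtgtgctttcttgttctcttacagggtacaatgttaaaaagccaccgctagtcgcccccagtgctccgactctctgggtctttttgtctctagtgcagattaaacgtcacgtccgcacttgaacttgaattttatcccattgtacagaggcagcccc
TAL1: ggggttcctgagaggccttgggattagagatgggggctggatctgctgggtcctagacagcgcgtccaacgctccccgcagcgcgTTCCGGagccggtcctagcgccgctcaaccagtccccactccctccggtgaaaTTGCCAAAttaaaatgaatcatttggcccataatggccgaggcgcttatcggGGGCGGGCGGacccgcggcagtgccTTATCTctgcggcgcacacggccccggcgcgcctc
CEBPA: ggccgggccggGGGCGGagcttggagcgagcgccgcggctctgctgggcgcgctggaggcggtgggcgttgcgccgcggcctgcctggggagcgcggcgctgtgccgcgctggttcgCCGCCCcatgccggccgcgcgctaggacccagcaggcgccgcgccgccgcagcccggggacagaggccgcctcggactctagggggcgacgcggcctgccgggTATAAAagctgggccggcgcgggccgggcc
CSF1R: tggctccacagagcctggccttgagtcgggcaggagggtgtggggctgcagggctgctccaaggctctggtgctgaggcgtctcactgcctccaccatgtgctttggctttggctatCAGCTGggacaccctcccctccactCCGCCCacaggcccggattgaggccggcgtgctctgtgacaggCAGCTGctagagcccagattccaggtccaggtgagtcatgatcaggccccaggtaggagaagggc
The CEBPA promoter was the richest in bases G and C of these 4, with 81.2% and 41 CpG dinucleotides, against a median of 58.0% and 11 over the 35116 promoters of the table. The TAL1 promoter had 64.8% and 24 CpGs, and the BCL11B promoter had 54.8% and 17. In the CSF1R promoter, 64.4% of bases were G or C but only 6 CpGs were found, which is 0.232 times the number its base composition would give, compared with 1.01 at CEBPA. The CEBPA promoter held a TATAAA match 30 to 25 bases before the start, and such a match occurred in 10.7% of all promoters of the same length. Of the other motifs, the CEBPA promoter held only the GC box, which was found in 42.6% of all promoters. TAL1 held matches to GATA, ETS, C/EBP and the GC box, found in 9.17%, 14.5%, 9.05% and 42.6% of promoters, and both of its GC-box matches overlapped each other. CSF1R held the E-box at 2 places and the GC box at 1, and the E-box was found in 14.0% of all promoters. The BCL11B promoter held 0 of the 8 motifs. The RUNX letters were found in none of these 4 promoters and in 11% of all promoters. MPO, which also had a peak at its 5′ end, had no entry in the table.

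Peaks were found in the windows of 5 of the 8 genes in REH and of 8 of 8 in 697. For scale, when the genome was cut into 75010 tiles of 40 kb, gene-free stretches included, 31.9% of tiles had a REH peak and 36.2% had a 697 peak, and with tiles of 120 kb the shares were 53.1% and 53.2%. The windows ran from 24 to 123 kb with a median of 35.0 kb, and a wider window holds a peak more often. The 5 genes with REH peaks had 697 peaks as well, a pattern found in 25.3% of tiles. A peak in neither line was found in 57.2% of tiles and at 0 of the 8 genes, so the tile shares include many empty tiles. CD3E, CD7 and CEBPA had a peak in 697 only and 0 genes had one in REH only, and the tiles gave 10.9% and 6.57% for these patterns. In all, 16 REH peaks and 33 697 peaks lay in the 8 windows, which is 4.04 and 8.33 per 100 kb. They covered 34796 bp in REH and 48053 bp in 697, or 8.79% and 12.1% of the 396000 bp examined. The mean coverage of all 40 kb tiles was 2.26% and 3.38%, so the 697 list also covered more bases over the genome as a whole.

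**Figure D1:**
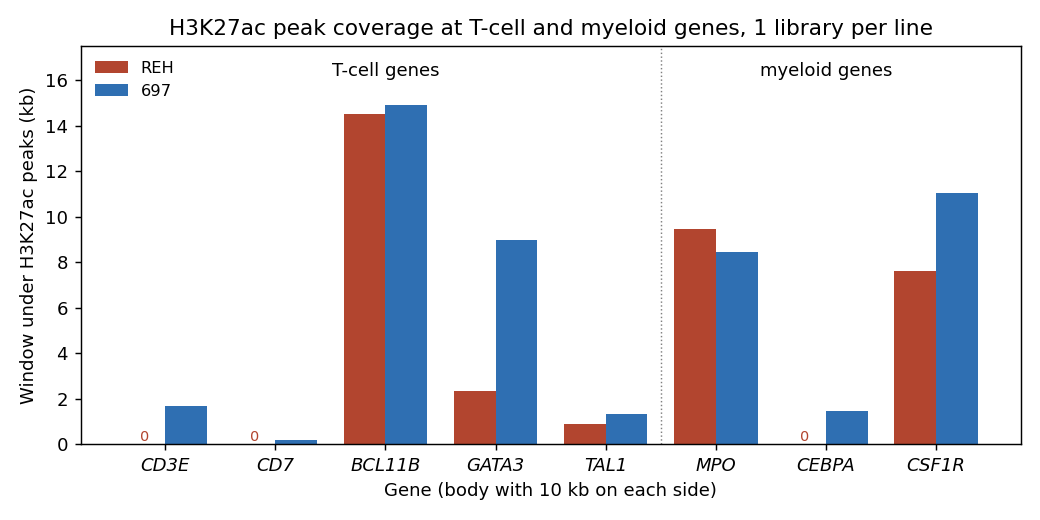
Kilobases of each gene window (gene body with 10 kb on each side) under H3K27ac peaks in the single REH library (red) and the single 697 library (blue), with no error bars because there were no replicates. BCL11B, MPO and CSF1R had the most bases under peaks in REH (14500, 9445 and 7617 bp), and CD3E, CD7 and CEBPA had 0 there.

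A gene was called differential when only 1 line had a peak or when the covered bases differed at least 2 times, a rule of size and not a test. By this rule 4 of the 8 genes were differential, CD3E, CD7, GATA3 and CEBPA, against 28.0% of all tiles. All 4 genes were higher in 697, a direction found in 18.5% of tiles, and 0 were higher in REH, a direction found in 9.47%. Of the 75010 tiles, 20970 were differential, but 42916 had a peak in neither line and could not be called. All 8 windows had a peak, so these shares are low for such windows and show no excess of differential genes. BCL11B, TAL1, MPO and CSF1R were not differential, with 1.03, 1.5, 0.895 and 1.45 times as many covered bases in 697 as in REH. The 697 list holds more peaks than the REH list over the whole genome, and the part of this in the direction at these genes was not tested.

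The surface marker genes of T cells, CD3E and CD7, had 0 peaks each in REH and 1 each in 697. The CD3E window, on chromosome 11 from 118165001 to 118197000, contained 0 peaks in REH and 1 in 697, chr11:118186191-118187856, which covered 1666 bp or 5.21% of the window. That peak lay over the 3′ edge of the gene, 11.19 to 12.86 kb after the 5′ end, and left the promoter side without a peak in either line. The nearest REH peak was 54987 bp from the 5′ end. The CD7 window, on chromosome 17 from 80262001 to 80286000, contained 0 peaks in REH and a single 697 peak of 185 bp, the shortest length in the 697 list. It lay 6.62 to 6.81 kb upstream of CD7, on the side where GENCODE places the neighbouring gene SECTM1, and the CD7 body itself had no peak in either line. At an FDR of at most 5%, read from the q-value averaged over each peak, the CD3E peak was lost. Without flanks the CD7 peak was, and with flanks of 25 kb, which take in REH peaks, CD7 was no longer differential.

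BCL11B had the most bases under peaks of the 5 T-cell genes in both lines, in the widest window, while in 697 the covered share was higher at GATA3. Its window, on chromosome 14 from 99625001 to 99748000, held 6 peaks in REH, over 14500 bp, and 10 peaks in 697, over 14915 bp, which is 11.8% and 12.1% of the window. Of these bases, 9216 bp lay under peaks of both lines. The near equality depended on the peaks kept, since at an FDR of at most 5% the coverage was 8685 bp in REH and 14657 bp in 697, at −log10(p) of at least 10 it was 1982 and 3677 bp, and with peaks of at least 1000 bp it was 14090 and 13177 bp. Over the 5′ end, REH had a peak of 5815 bp, chr14:99735175-99740989, and 697 a peak of 6860 bp, chr14:99734106-99740965. These reached from about 3 kb before the 5′ end to 2.83 kb after it in REH and 3.89 kb after it in 697, and shared 5791 bp. They were among the wide peaks of their lists, since 2.26% of REH peaks and 1.28% of 697 peaks were at least as long. The RefSeq model of BCL11B is only 89 bp shorter than the gene body used, and these peaks extend past the 5′ end on both sides by more than the length of the promoter printed above. The mean fold enrichment deposited for them was 1.28 in REH and 1.29 in 697, and at an FDR of at most 5% the 697 peak remained while the REH peak did not.

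Inside BCL11B, 2 further regions were marked in both lines. The peaks of 2145 bp in REH and 2356 bp in 697, 8.43 to 10.81 kb after the 5′ end, overlapped by 2112 bp. Farther in, at 78.85 to 80.83 kb, a REH peak of 1982 bp held the whole of a 697 peak of 1313 bp. The other peaks of the gene body did not overlap between the lines. REH had 3 such peaks, 24.93 to 41.65 kb after the 5′ end, of 410 to 2812 bp, and 697 had 7, of 210 to 1385 bp, spread from 5.53 to 85.2 kb. A lncRNA gene also overlaps BCL11B on the opposite strand in GENCODE, and the mark does not tell which transcript a peak belongs to.

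GATA3 differed most in covered bases between the libraries. In its window, on chromosome 10 from 8086001 to 8128000, 2 REH peaks covered 2339 bp and 4 697 peaks covered 8965 bp, or 5.57% and 21.3%, a ratio of 3.83. In both lines the main signal lay within the gene, where a REH peak of 2088 bp, chr10:8102307-8104394, fell wholly inside a 697 peak of 4346 bp, chr10:8101265-8105610. Of the REH bases under peaks, 94.5% were also under a 697 peak, while 24.7% of the 697 bases were under a REH peak. The additional 697 peaks lay on both sides of the 5′ end, 1 of 1339 bp inside the gene, 2.58 to 3.92 kb after the 5′ end, and 2 in the upstream flank. The latter, of 1522 and 1758 bp, were 4.3 to 5.82 kb and 7.83 to 9.58 kb upstream, where REH had none. No peak reached within 1 kb of the 5′ end in either line. The RefSeq model of GATA3 is 7866 bp longer than the gene body used and the antisense lncRNA GATA3-AS1 overlaps it, and which of their starts lies nearest to these peaks could not be told without an annotation on hg19.

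TAL1 had few and short peaks, and none in common. In the window on chromosome 1, from 47671001 to 47709000, the REH library had 1 peak of 895 bp in the downstream flank, 20.57 to 21.47 kb after the 5′ end. In 697, 3 peaks of 246, 612 and 481 bp covered 1339 bp, of which the first crossed the 3′ edge of the gene and the others were 0.51 to 1.12 kb and 8.2 to 8.68 kb upstream of the 5′ end. The covered share was 2.36% for REH and 3.52% for 697, with 0 bp in common. The gene body was free of REH peaks and had 18 bp under a 697 peak. The RefSeq model of TAL1 is 1954 bp shorter than the gene body used, so the peak nearest to the 5′ end may be farther from the RefSeq start than 0.51 kb.

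**Figure D2:**
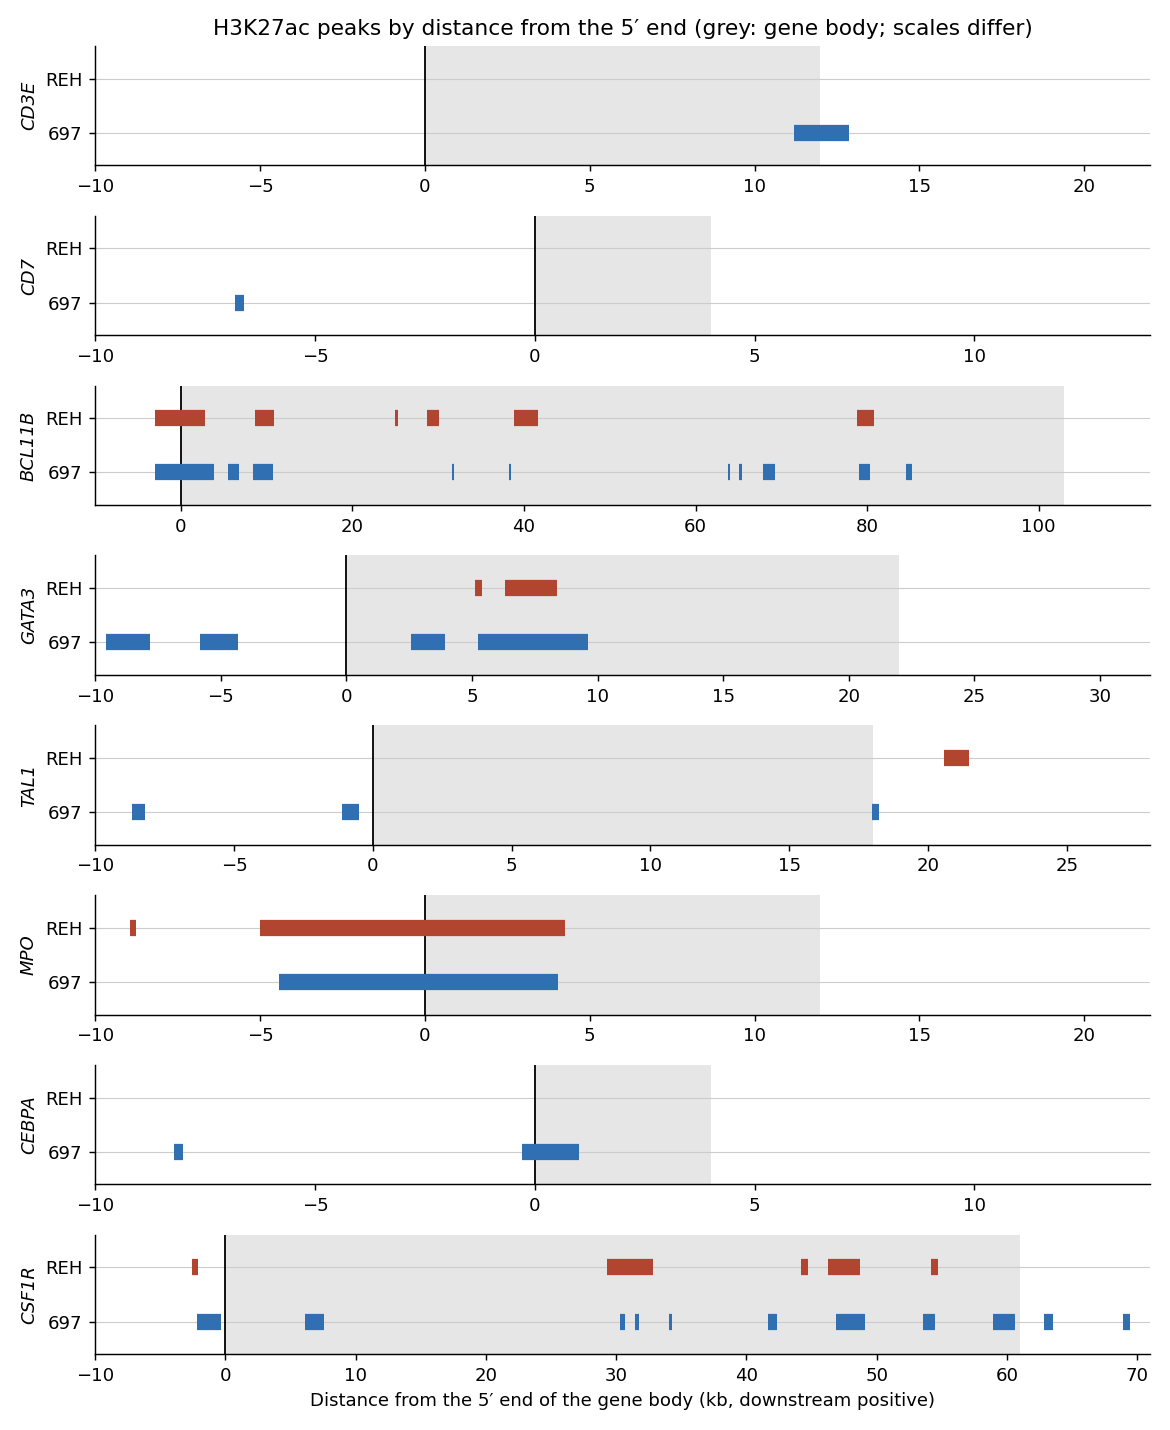
Positions of the H3K27ac peaks (bars; REH red, 697 blue) in the 8 gene windows by distance in kb from the 5′ end of the gene body (black line), with the gene body in grey and a scale of its own for each gene. Wide peaks span the 5′ ends of BCL11B and MPO in both lines, and the 5′ end of CEBPA lies under a 697 peak only.

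Of the myeloid genes, MPO had the widest peak of any of the 8 genes in each line. In REH the peak was 9253 bp long, chr17:56354744-56363996, and in 697 it was 8457 bp long, chr17:56354957-56363413. The whole of the 697 peak lay inside the REH peak. Both covered the 5′ end, from 5.0 kb upstream to 4.26 kb inside the gene in REH and from 4.41 kb upstream to 4.04 kb inside in 697. In each list 0.71% of peaks were at least as long. A second REH peak, of 192 bp, lay 8.75 to 8.94 kb upstream. On chromosome 17, from 56337001 to 56369000, the covered share of the window was 29.5% in REH and 26.4% in 697, more than in 99.1% and 97.3% of the 40 kb tiles of these genomes. MPO was the only one of the 8 genes with more covered bases in REH than in 697, and the ratio of 697 to REH was 0.895. Under stricter peaks, equal peak numbers or 5 kb flanks, BCL11B, TAL1 or CSF1R also had more in REH. The only other protein-coding gene within 10 kb of MPO in GENCODE is LPO, lactoperoxidase, on the downstream side, where neither line had a peak.

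CEBPA, in contrast, had 0 REH peaks in its window on chromosome 19 from 33780001 to 33804000, and the nearest REH peak was 41659 bp from the 5′ end. In 697, a peak of 1283 bp, chr19:33793004-33794286, lay over the 5′ end, and a peak of 188 bp lay 8.01 to 8.2 kb upstream. Together they covered 1471 bp, or 6.13% of the window. Of the 697 peaks in the whole list, 34.5% were at least as long as the first of these and 98.5% as long as the second. The CEBPA body used is 4 kb long and the RefSeq model is 1399 bp shorter, so whether the peak holds the promoter printed above cannot be told at this precision, and GENCODE places the lncRNA CEBPA-DT on the upstream side. Neither peak remained at an FDR of at most 5%, again by the average over the peak.

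CSF1R had many peaks, mostly away from the 5′ end of the gene body used. Whether transcription also starts inside this body was not examined. The window on chromosome 5, from 149422001 to 149503000, held 5 peaks in REH, over 7617 bp or 9.4%, and 11 in 697, over 11055 bp or 13.6%. Of the covered bases, 3023 bp were common to both, which is 39.7% of the REH bases and 27.3% of the 697 bases. The best shared region lay 46.25 to 49.11 kb into the gene, where peaks of 2505 bp in REH and 2244 bp in 697 overlapped by 1890 bp. The longest REH peak, of 3568 bp from 29.27 to 32.84 kb after the 5′ end, met 2 short 697 peaks of 350 and 404 bp. Around the 5′ end, 697 had a peak of 1835 bp that ended 0.32 kb upstream of it and REH a peak of 456 bp that ended 2.11 kb upstream, and they overlapped by 52 bp. This upstream flank is on the side of PDGFRB, the gene of a platelet-derived growth factor receptor, which GENCODE places within 10 kb. Neither of these peaks remained at an FDR of at most 5%, and at that FDR the window had 7161 bp covered in REH and 6259 bp in 697, the opposite order. In the body, 4 peaks were found in 697 alone, among them 1 at 6.12 to 7.56 kb after the 5′ end and 1 of 1667 bp at 58.95 to 60.62 kb. With all peaks kept, the body without flanks had 7161 bp covered in REH and 7999 bp in 697. In the downstream flank, 697 had peaks of 550 and 671 bp and REH had none. GENCODE places the gene HMGXB3 on that side.

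Across the 8 genes, a peak lay within 1 kb of the 5′ end of 2 genes in REH, BCL11B and MPO, and of 5 genes in 697, these and TAL1, CEBPA and CSF1R. The 5′ ends are those of gene bodies given in kb and may be off by more than 1 kb. RefSeq models of TAL1, CEBPA and CD7 are 1954, 1399 and 1264 bp shorter than these bodies, and that of GATA3 is 7866 bp longer. The TAL1 peak in 697 may thus lie more than 1 kb from the RefSeq start. The share of all genes with such a peak was not computed, because no hg19 annotation was at hand. Of the 16 REH peaks, 11 lay within a gene body, 2 across an edge of a body, 2 in an upstream flank and 1 in a downstream flank. For the 33 697 peaks these numbers were 19, 5, 7 and 2. The REH peaks in these windows had a median length of 1659 bp, from 192 to 9253 bp, and the 697 peaks one of 942 bp, from 185 to 8457 bp, beside list medians of 1060 and 871 bp. Peaks of at least 5 kb numbered 2 in each line, those over the 5′ ends of BCL11B and MPO, and 3.28% of all REH peaks and 2.99% of all 697 peaks were of that length. Of the REH peaks 10 of 16 overlapped a 697 peak, beside 64.1% of the whole REH list, and of the 697 peaks 10 of 33 overlapped a REH peak, beside 38.9% of the 697 list.

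**Figure D3:**
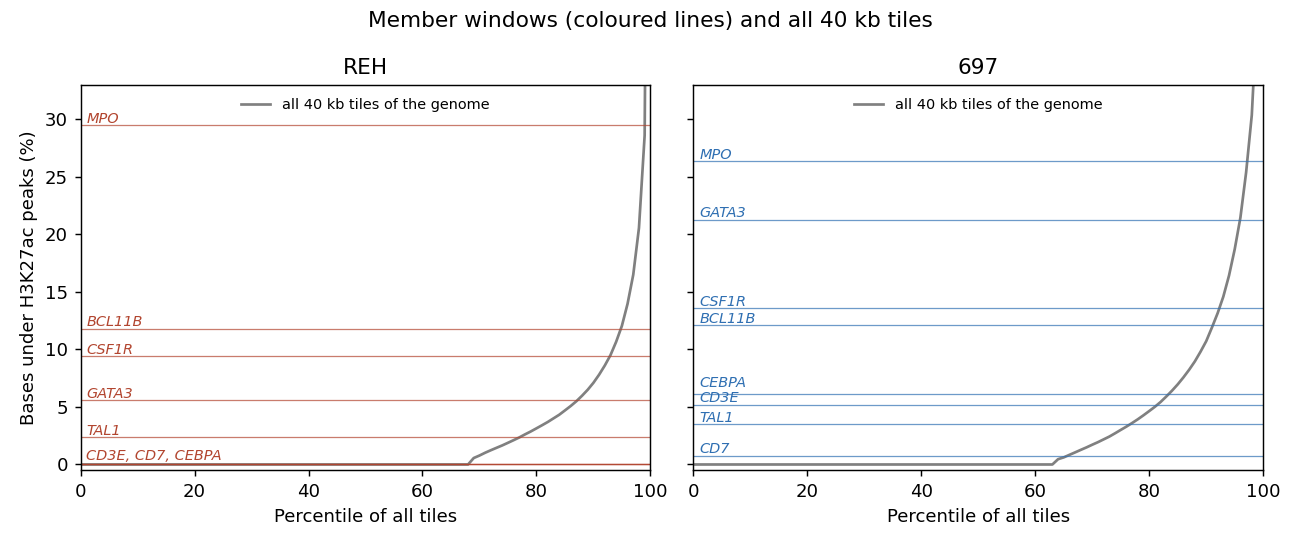
Percent of bases under H3K27ac peaks in every 40 kb tile of the genome, ordered from the least to the most covered (grey curve), with the coverage of each of the 8 gene windows as a labelled horizontal line, for REH (left) and 697 (right). The MPO window lies above 99.1% of tiles in REH and 97.3% in 697, and CD3E, CD7 and CEBPA lie at 0 in REH with the 68.1% of tiles that had no REH peak.

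The cell type of the lines was checked with 7 B-lineage genes, CD79A, CD79B, CD22, PAX5, EBF1, VPREB1 and BLNK, over windows made in the same way. All 7 had peaks in both lines. At −log10(p) of at least 10, 2 of the 7 kept a peak in REH and 3 in 697, beside 2 and 2 of the 8 T-cell and myeloid genes. EBF1 and PAX5, transcription factors of B-cell commitment, had peaks over 118110 and 38987 bp in REH, and over 169813 and 19525 bp in 697. Their windows were the widest of the B-lineage list, so these lengths do not compare with those of shorter windows. By share, PAX5 was the least covered of the 7 B-lineage windows in both lines, with 17.6% in REH and 8.8% in 697. The PAX5 share was above the median of the 8 T-cell and myeloid genes in REH (3.96%) and below it in 697 (9.12%). CD79A, a signalling chain of the B-cell receptor, had 78.6% of its window covered in REH and 48.6% in 697, and CD22, a surface receptor of B cells, had 30.0% and 56.8%. The median coverage of the B-lineage windows was 27.8% in REH and 48.6% in 697, with ranges of 17.6% to 78.6% and 8.8% to 69.9%. For the 8 T-cell and myeloid genes the median was 3.96% in REH, from 0% to 29.5%, and 9.12% in 697, from 0.771% to 26.4%. The ranges of the lists therefore overlapped in both lines, and the MPO window was more covered than 4 of the 7 B-lineage windows in REH. Near the 5′ end, 6 of the 7 B-lineage genes had a peak in REH and 7 of 7 in 697. The 8 T-cell and myeloid genes had 2 and 5.

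The 8 genes were also set beside 16 other genes of these lineages. Of 8 further T-cell genes, 4 had a peak in REH and 6 in 697, and CD3D, which encodes another chain of the T-cell receptor complex, and CD4, the coreceptor of helper T cells, had none in either line. The most covered were LCK, a kinase of T-cell receptor signalling, with 9738 bp in REH and 26893 bp in 697, ZAP70, a kinase of the same pathway, with 10739 and 20776 bp, CD2, an adhesion receptor, with 3096 and 12246 bp, and TCF7, a transcription factor of early T cells, with 8878 and 5850 bp. CD5 and CD8A, surface markers of T cells, had peaks in 697 only, over 466 and 701 bp. Of 8 further myeloid genes, 6 had a peak in REH and 6 in 697, and CD33, a myeloid surface marker, had none in either line. The RefSeq model of CD33 is 12941 bp longer than the body used, and the nearest 697 peak was 7271 bp outside the window. The absence in 697 may therefore depend on the body used. SPI1, a transcription factor of myeloid and B cells, had 6756 bp covered in REH and 16136 bp in 697, and CSF3R, the receptor for granulocyte colony-stimulating factor, had 7346 and 13265 bp. LYZ, the gene of lysozyme, had 1664 and 1757 bp, and ELANE, the gene of neutrophil elastase, had 755 and 2712 bp. ANPEP, the gene of the surface enzyme CD13, had 1964 bp in 697 and 0 in REH, while ITGAM, an integrin of myeloid cells, was the only one of the 16 with a peak in REH and not in 697, over 826 bp. The median coverage of these 16 windows was 2.85% in REH and 7.06% in 697. A peak lay within 1 kb of the 5′ end of 6 of the 16 in REH and of 5 in 697, the opposite order to the 8 genes. By the rule of size, 8 of the 16 were differential with more in 697 and 1, ITGAM, with more in REH. The shares of all 40 kb tiles were 18.5% and 9.47%, but 57.2% of tiles had a peak in neither line. These shares are therefore low for windows with a peak, and no excess of differential genes is shown.

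**Figure D4:**
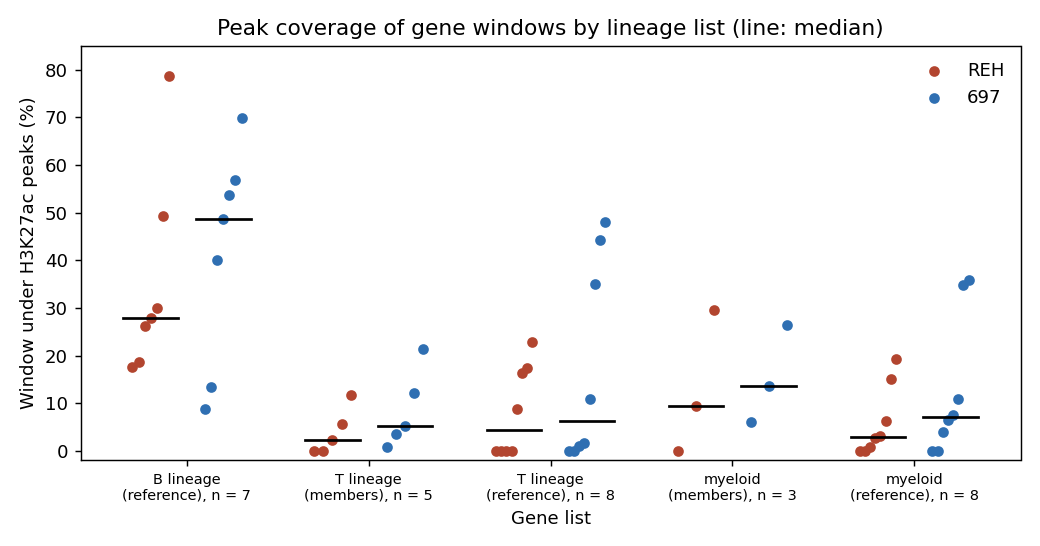
Percent of each gene window under H3K27ac peaks, by lineage list and cell line, where each point is 1 gene, the horizontal line is the median of the list, and "members" are the 8 T-cell and myeloid genes of the main description. B-lineage windows had medians of 27.8% in REH and 48.6% in 697, above the median of every T-cell and myeloid list, and single T-cell and myeloid genes such as MPO and ZAP70 lay within the B-lineage range of both lines.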

How the data were processed

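H3K27ac ChIP-seq and input libraries of REH and 697 cells, 1 of each per line, were assigned from their GEO titles. Per the Methods and the submitters' processing notes, reads were mapped to hg19 with Bowtie and peaks were called with MACS. The Methods name an older MACS version than the deposited file headers, which give MACS 2.1.0.20150731 in broad mode against the input, with q-value cutoffs of 0.05 and 0.1; the headers were followed. For each peak the authors deposited position and length, mean pileup signal, fold enrichment as a linear ratio, and −log10 p-value and q-value averaged over the region. In broad mode a wide peak can therefore have a modest average. Lengths and positions were used here, and tag counts per peak were not.

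Peaks overlapping a window by at least 1 bp were taken, and covered bases were clipped to the window. The 8 gene bodies were given in kb on hg19. The 23 reference genes were placed from general knowledge of hg19 in kb; 1 further B-lineage gene of the list is not reported here, and no B-lineage count or median includes it. As a check, lengths of 26 of these 31 gene bodies were within 3 kb of the RefSeq models on GRCh38, and GATA3, CD5, ZAP70, TCF7 and CD33 have longer models. Strand and neighbours came from GENCODE 44, and 5 of the 8 genes had a RefSeq promoter. Genes named are all 8, the 3 most covered of each reference list per line and those with a peak in 1 line only; genes without any peak were also named. The genes and lists were chosen with earlier results of these data known. Scripts (Python 3.11.15 with pandas 2.3.3, numpy 2.4.6, matplotlib 3.10.9 and scipy 1.17.1) were tested on simulated data. The alternatives were stricter peaks, merged peaks, other flanks, overlaps, distances and tile widths, and equal peak numbers.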

Additional observations from a re-analysis of the deposited data

How the results depend on the processing

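Of 134 alternative values for the counts, 108 stayed within 1.5 times the reported count and 26 moved. The 108 include settings that could hardly move a count. Asking for at least 50% of the peak inside the window changed none, and merging cannot take the last peak out of a window. Of 36 alternative differences in covered bases at CD3E, CD7, GATA3 and CEBPA, 27 were higher in 697, 9 were 0 because no peak was left in either line, and 0 were higher in REH. Those 4 genes were the ones called higher in 697. Of the 36 at BCL11B, TAL1, MPO and CSF1R, 19 were higher in 697, 3 were 0 and 14 were higher in REH, of which MPO gave 8. The 697 minus REH difference turned to -913 bp (peaks of at least 1000 bp) and -1323 bp (equal peak numbers) at BCL11B, to -37 bp (5 kb flanks) and -895 bp (equal peak numbers) at TAL1, and to -902 bp (FDR of at most 5%) and -3070 bp (−log10(p) of at least 10) at CSF1R. At −log10(p) of at least 10, which uses averages over each region, members with a peak fell to 2 in REH and 2 in 697, their peaks to 3 and 5, and 5′ ends with a peak to 0 and 0. Differential genes were then 2, 1 higher in 697 (CD7) and 1 higher in REH (CSF1R). Reference genes with a peak in REH and 697 were 2 and 3 for the B lineage, 3 and 2 for the T lineage and 2 and 3 for myeloid genes. At this threshold the B-lineage list no longer stood above the others. With an FDR of at most 5%, which also uses averages over each region, 5′ ends with a peak were 1 in REH and 3 in 697. At that FDR 2 genes were differential, both (2) higher in 697. When peaks under 1000 bp were left out, 9 peaks in REH, 16 in 697 and 3 reference myeloid genes with a REH peak remained. Without flanks, 3 reference myeloid genes had a peak in REH and 3 in 697. With 25 kb flanks, 26 REH peaks lay in the windows. With the longest 697 peaks in the number of the REH list, 18 697 peaks remained and 1 gene, TAL1, was differential with more in REH. The causes were not tested, beyond the fewer or more peaks and bases that each setting holds by construction. No paired analysis was possible because each cell line has 1 ChIP library and no result comes from a test. Tag counts per peak were not used, and no replicate error could be given.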
